A study of Homo sapiens with 24 samples.

Results

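The secreted ribonuclease RNASE1 was described together with 3 related genes, RNASE4, ANG and RNH1, in CAGE-Seq libraries of 4 glioblastoma cell lines. These 4 genes are 4 of the 43037 genes in the deposited table. RNASE1 was chosen by its own measured values, namely its lower level in the “WWOX” variants of U87MG, U251MG and DBTRG-05MG, so its values are given as a description with no test. RNASE4, ANG and RNH1 were added by name, for their relation to RNASE1.

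U87MG, T98G, U251MG and DBTRG-05MG are established human glioblastoma lines. Each was transduced with lentivirus and selected with puromycin, either with a blank puromycin vector (“Vec”) or with WWOX, an oxidoreductase regarded as a tumor suppressor, in a vector with a CMV promoter, GFP and puromycin resistance (“WWOX”). Every line and variant was measured in 3 libraries, 24 in all. All cells of both variants thus carry a vector and passed through antibiotic selection. The sources describe the selection of clones without saying whether a variant is 1 clone or several, and T98G, DBTRG-05MG and the pair of U87MG and U251MG grew in different media. The methods call the 3 libraries of a variant biological replicates without saying what was kept separate, so p-values measure the spread between these libraries.

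RNASE1 is the pancreatic-type ribonuclease, a secreted enzyme that cleaves RNA outside the cell and is best known from pancreas and from endothelium. RNASE4 and ANG (angiogenin) belong to the same RNase A superfamily and are transcribed from shared promoters, with angiogenin acting on blood vessel growth and on tRNA cleavage under stress. RNH1 is the cytosolic ribonuclease inhibitor, which binds and blocks enzymes of this superfamily that enter the cytosol. CAGE-Seq reads the capped 5′ end of each RNA, so a gene is measured as tags at its starts and needs no correction for length. Values below are CPM, that is a library's tags of a gene scaled to a total of 1000000 on all genes.

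RNASE1 (ENSG00000129538.14) lies at chr14:20801228-20802855 on the minus strand (hg38, GENCODE release 44), and no annotated gene overlaps it. ANG (ENSG00000214274.10, chr14:20684177-20698971) and RNASE4 (ENSG00000258818.4, chr14:20684560-20701216) lie on the plus strand of the same cluster and overlap each other. All 3 annotated starts of RNASE4 fall inside exons of the overlapping genes, and 2 of the 3 starts of ANG fall inside the span of RNASE4. RNH1 (ENSG00000023191.17) lies apart from the cluster, at chr11:494512-507300 on the minus strand, with no overlapping gene.

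The 250 bases before a start are shown for the most upstream of the 2 RNASE1 starts that RefSeq lists and for 1 of the 2 starts it lists for both ANG and RNASE4, since CAGE-Seq counts the tags that begin at such starts. They were read from RefSeq (GRCh38.p14) at chr14:20802845-20803094 on the minus strand and at chr14:20688514-20688763 on the plus strand, 5′ to 3′. Capitals mark TATAA and TGANTCA, an AP-1-type motif, each searched on both strands.
RNASE1: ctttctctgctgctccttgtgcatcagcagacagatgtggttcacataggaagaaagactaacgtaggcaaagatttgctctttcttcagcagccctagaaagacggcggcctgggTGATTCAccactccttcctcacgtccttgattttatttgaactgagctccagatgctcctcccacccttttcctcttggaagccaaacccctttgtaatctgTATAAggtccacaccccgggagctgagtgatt
ANG and RNASE4: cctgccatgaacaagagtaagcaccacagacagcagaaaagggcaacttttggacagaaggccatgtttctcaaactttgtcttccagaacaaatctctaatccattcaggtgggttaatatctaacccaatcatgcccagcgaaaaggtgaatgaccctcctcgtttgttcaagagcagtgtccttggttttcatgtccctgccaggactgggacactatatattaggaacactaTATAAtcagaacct
In the RNASE1 window TATAA began 32 bases and TGANTCA 134 bases before the start. In the shared ANG and RNASE4 window shown, TATAA began 14 bases before the start. TATAA was found in 19.0% and TGANTCA in 6.59% of 34943 promoter windows of the same length. This RNASE1 window holds 5 CpG and this shared window 2, against a median of 11. The second RNASE1 window holds 3 CpG and none of the motifs. The other shared ANG and RNASE4 window, which lies in an exon of ANG and is not printed, holds 21 CpG and, 2 times, GGGCGG, which was found in 42.5% of windows. The RNH1 windows hold 31 and 36 CpG and GGGCGG 6 times and 3 times. These matches describe the letters only.

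The libraries held 10756072 to 16953689 tags on genes, so that 3 tags, the floor used here, stand for 0.177 to 0.279 CPM. This floor covers counting error only. The “WWOX” libraries of U251MG stood further apart than those of other groups, with median absolute log2 differences of 0.862, 0.439 and 0.658 between pairs, against 0.229 to 0.612 elsewhere. GFAP, the astrocyte filament, had 2035 to 3115 CPM in “Vec” of U251MG but 114 in “WWOX” replicate 1 of that line, where the other two libraries had 2506 and 3226. GFAP had at most 11.6 CPM in any library of the other lines, so this astrocyte marker is nearly absent there. In U87MG WWOX itself averaged 37.9 ± 3.48 CPM in “Vec” and 62.7 ± 2.79 in “WWOX”, and it averaged 21.3 ± 0.927 and 29.4 ± 2.25 in DBTRG-05MG, with libraries that did not overlap (SD, n = 3). It had 43.3 ± 12.2 and 55.6 ± 9.17 CPM in T98G. In U251MG it had 33.5 ± 2.96 and 37.4 ± 19.7 CPM, and the library labelled “WWOX” replicate 2, at 17.4 CPM, was below all 3 “Vec” libraries. Adjusted p for WWOX was 0.137, 0.553, 1.0 and 0.770 in U87MG, T98G, U251MG and DBTRG-05MG (limma). A transcript that begins in a vector promoter has a vector-derived 5′ end, so these values are a weak check of the labels.

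RNASE1 was at a low but measurable level in “Vec” of 3 lines and near the floor in their “WWOX” variants and in both variants of T98G. In U87MG its level was 9.16, 11.1 and 9.75 CPM in “Vec” (129, 144 and 139 tags) and 0.489, 0.136 and 0 CPM in “WWOX” (8, 2 and 0 tags). The means of 10.0 ± 1.01 and 0.208 ± 0.253 CPM are 48.0-fold apart, and the libraries did not overlap. Since the “WWOX” mean rests on 10 tags, this ratio moved with 1 library, to 148-fold without “WWOX” replicate 1.

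In U251MG the level of RNASE1 was 17.5, 12.0 and 10.6 CPM in “Vec” (216, 151 and 159 tags) and 0, 0.644 and 0.541 CPM in “WWOX” (0, 9 and 8 tags). This made means of 13.4 ± 3.63 and 0.395 ± 0.346 CPM, 33.9-fold apart, with every “WWOX” library below every “Vec” library. The library with 0 tags was “WWOX” replicate 1, the one with little GFAP. Without it the ratio was 22.6, and without the library labelled “WWOX” replicate 2 it was 49.5.

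In DBTRG-05MG the level of RNASE1 was 6.81, 1.03 and 7.77 CPM in “Vec” (104, 16 and 118 tags) and 0.0590, 0.778 and 0.685 CPM in “WWOX” (1, 12 and 10 tags). The means were 5.20 ± 3.65 and 0.507 ± 0.391 CPM, 10.3-fold apart. “Vec” replicate 2 was far below the other “Vec” libraries and only just above the highest “WWOX” library, so the groups did not overlap but nearly met. Leaving out single libraries moved the ratio between 7.11 and 14.4.

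T98G stood apart among the lines, with 0.422, 0.0627 and 0.0778 CPM of RNASE1 in “Vec” (6, 1 and 1 tags) and 0.186, 0 and 0 in “WWOX” (2, 0 and 0 tags). The variants overlapped, and no ratio is given because both means are at or under the floor. In order of mean level, “Vec” of U251MG, U87MG and DBTRG-05MG came first, and the remaining 5 groups all lay under 1 CPM. Neighbours within either set of groups were not apart beyond their spread, except “Vec” of U87MG and DBTRG-05MG, whose libraries did not overlap.

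**Figure D1:**
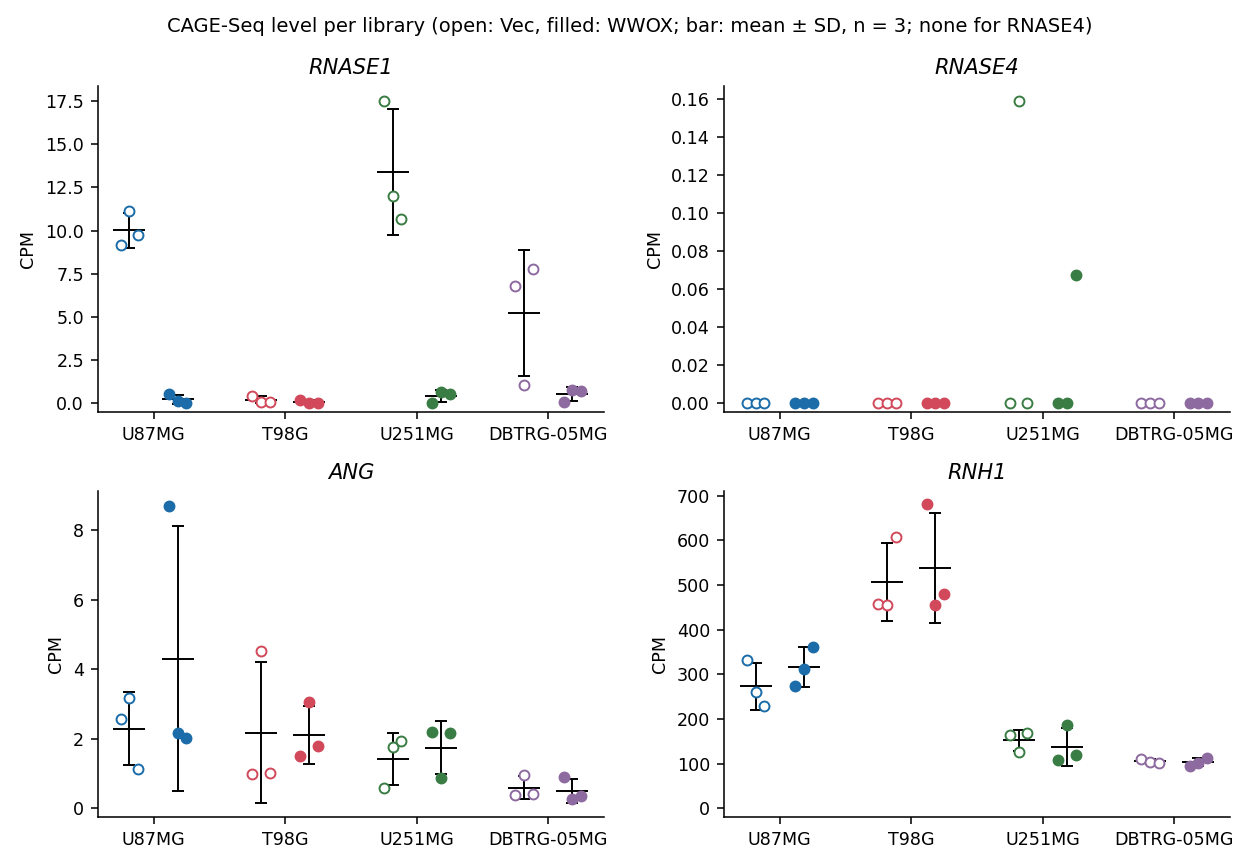
Level in CPM (vertical axes, linear) of RNASE1, RNASE4, ANG and RNH1 in each library, by line, with “Vec” as open and “WWOX” as filled points and bars for mean ± SD (n = 3; no bars for RNASE4). RNASE1 points of “WWOX” all lie under 1 CPM, whereas the “Vec” and “WWOX” points of ANG and RNH1 overlap in every line.

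On the scale of the model, log2(CPM + 0.5) after scaling, U87MG gave a log2FC of −4.06 for RNASE1, U251MG −3.95, DBTRG-05MG −2.22 and T98G −0.28, with a standard error of 0.475. The added 0.5 pulls these values toward 0. Of 12327 tested genes, U87MG had 3.2% past an adjusted p of 0.05, T98G 1.14%, U251MG 0.316% and DBTRG-05MG 1.02%. The 39 genes of U251MG became 557 without the library labelled “WWOX” replicate 2, and the 140 of T98G became 394 without “Vec” replicate 2. Libraries of “Vec” and “WWOX” did not overlap for 17.5%, 16.2%, 10.4% and 19.7% of tested genes in the same order of lines. As RNASE1 was chosen on these contrasts, nothing is read from them about it. In bulk libraries, fewer cells that express a gene and less RNA per cell cannot be told apart.

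RNASE4 had 2 tags in “Vec” replicate 2 and 1 tag in “WWOX” replicate 3 of U251MG, and 0 tags in the other 22 libraries. It passed no filter and was not tested. How the authors assigned tags that begin inside both RNASE4 and ANG is not given in the sources used here, so a count near 0 does not show that the gene is silent. EGILA, a long noncoding RNA on the opposite strand of both genes, reached at most 0.141 CPM. The planned correlation of RNASE4 with ANG within a line could not be computed, since RNASE4 does not vary in most lines.

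ANG was measured in every library, at 0.259 to 8.69 CPM, and its level did not pass the test between “Vec” and “WWOX” in any line. It entered the test through 1 library only, “WWOX” replicate 1 of U87MG, the sole library above 5 CPM. In U87MG it had 2.56, 3.17 and 1.12 CPM in “Vec” and 8.69, 2.17 and 2.03 in “WWOX”. In T98G it had 0.984, 4.51 and 1.01 CPM in “Vec” and 1.49, 3.04 and 1.78 in “WWOX”. In both lines a single library was high and the variants overlapped.
U251MG had 0.568, 1.75 and 1.94 CPM of ANG in “Vec” and 2.19, 0.858 and 2.16 in “WWOX”. DBTRG-05MG was lowest, with 0.393, 0.966 and 0.395 CPM in “Vec” and 0.885, 0.259 and 0.343 in “WWOX”. The log2FC of ANG was 0.53, 0.19, 0.22 and −0.17 in U87MG, T98G, U251MG and DBTRG-05MG, with a standard error of 0.483. Adjusted p (limma) was 0.862, 0.930, 0.933 and 0.991. The 95% interval of the U87MG difference ran from −0.47 to 1.54, which holds both falls and rises. The mean over the 4 lines was 0.19 (exact permutation test within lines, two-sided p = 0.454, adjusted over both genes 0.908), with a positive value in 3 of 4 lines.

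RNH1 was the most abundant of these genes and differed between lines but not, past the test, between variants. T98G had 457, 455 and 607 CPM in “Vec” and 681, 455 and 479 in “WWOX”. U87MG had 332, 260 and 228 CPM in “Vec” and 274, 312 and 362 in “WWOX”. Levels in the other two lines were lower than in any library of these.
U251MG had 163, 126 and 168 CPM of RNH1 in “Vec” and 108, 187 and 118 in “WWOX”. DBTRG-05MG had 110, 104 and 101 CPM in “Vec” and 94.2, 102 and 113 in “WWOX”. The variants overlapped in every line. The log2FC was 0.15, 0.08, −0.19 and −0.09 in U87MG, T98G, U251MG and DBTRG-05MG (standard error 0.308), with adjusted p of 0.993, 0.957, 0.890 and 0.994 (limma). In U87MG the 95% interval ran from −0.49 to 0.79 and in U251MG from −0.83 to 0.45. The mean over the lines was −0.01 (exact permutation test within lines, two-sided p = 0.935, adjusted over both genes 0.935), with 2 lines positive and 2 negative.

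The log2FC of a line was also compared with the mean of the other lines, where 2.39%, 1.54%, 0.422% and 0.982% of tested genes passed for U87MG, T98G, U251MG and DBTRG-05MG. Neither ANG nor RNH1 passed in any of these 4 comparisons. The differences ran from −0.48 to 0.46 for ANG and from −0.24 to 0.22 for RNH1, with adjusted p of 0.859 or more (limma).

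**Figure D2:**
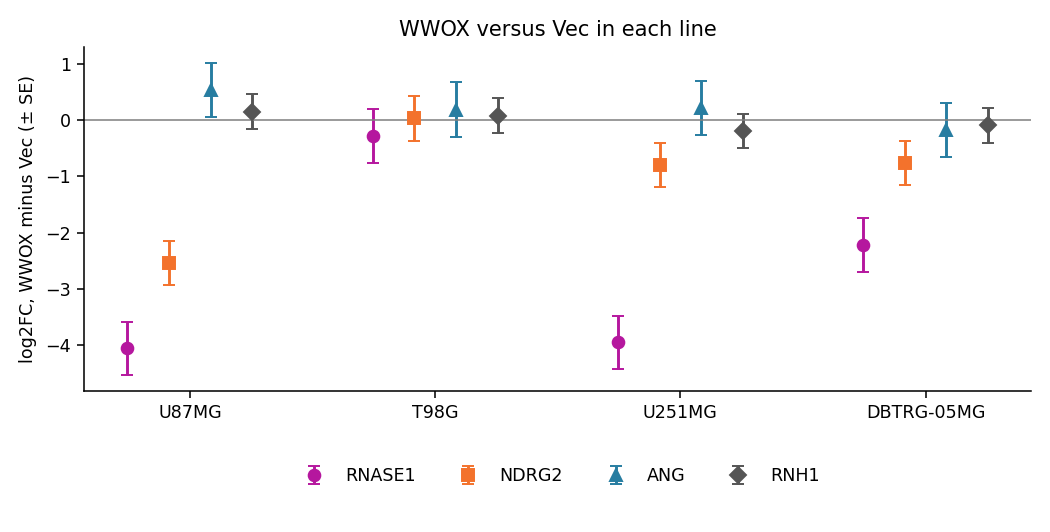
log2FC of “WWOX” minus “Vec” (vertical axis, ± standard error of the model) in each line for RNASE1, NDRG2, ANG and RNH1. RNASE1 lies at −4.06, −0.28, −3.95 and −2.22 from left to right, and ANG and RNH1 lie within 0.6 of 0 in each line.

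Between the “Vec” variants of the lines, RNH1 followed the order T98G, U87MG, U251MG and DBTRG-05MG. The step from T98G to U87MG was 0.89 on the log2 scale (U87MG minus T98G −0.89, adjusted p = 0.0259, limma), and that from U87MG to U251MG was 1.01 (adjusted p = 0.0124). The last step, from U251MG to DBTRG-05MG, was 0.58 with an adjusted p of 0.166 and a 95% interval of −0.06 to 1.22. T98G exceeded U251MG by 1.89 and DBTRG-05MG by 2.47, and U87MG exceeded DBTRG-05MG by 1.58 (adjusted p 4.1e-05, 8.74e-07 and 0.000225). Such differences between lines are common. Of all tested genes, 39.8% passed for U87MG against T98G, 38.6% against U251MG and 44.1% against DBTRG-05MG. T98G against U251MG gave 32.4% and against DBTRG-05MG 41.2%, and the last pair gave 31.6%. The call between U87MG and T98G was lost without “Vec” replicate 3 of T98G (adjusted p = 0.162) or “Vec” replicates 2 or 3 of U87MG (0.0700 and 0.125). That between U87MG and U251MG was lost without “Vec” replicate 1 of U87MG (0.0551) or “Vec” replicate 2 of U251MG (0.0643).

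For ANG, 1 of the 6 pairs of “Vec” variants passed, with U87MG above DBTRG-05MG by 1.46 (adjusted p = 0.0174, limma). This call was lost without “Vec” replicate 1 or 2 of U87MG (0.0537 and 0.0801) or “Vec” replicate 1 or 3 of DBTRG-05MG (0.0584 and 0.0651). T98G exceeded DBTRG-05MG by 1.21, with an adjusted p of 0.0504. The other 4 pairs differed by 0.26 to 0.78 with adjusted p from 0.239 to 0.712.

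The neighbourhood of RNASE1 was examined next, within 500 kb of the gene, where 54 other genes of the table lie and 12 were tested. In U87MG, where 3.2% of all tested genes passed, 1 of these 12 fell. This was NDRG2, a gene of the N-myc downstream regulated family that is highly expressed in astrocytes. No other neighbour passed in any line, and ANG is itself among these neighbours. NDRG2 (ENSG00000165795.24) lies at chr14:21016763-21070872 on the minus strand, with its start 268 kb upstream of that of RNASE1. Its span also holds RNASE7, RNASE8 and RNASE13, further genes of the superfamily, and its first bases overlap ARHGEF40 on the opposite strand. Counting by strand is not given in the sources used here, so tags of these partners cannot be told apart with certainty.

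In U87MG the level of NDRG2 was 3.69, 2.55 and 3.72 CPM in “Vec” (52, 33 and 53 tags) and 0.245, 0.271 and 0.0847 CPM in “WWOX” (4, 4 and 1 tags). The log2FC was −2.53 ± 0.391 (SE, adjusted p = 0.000202, limma), and the libraries did not overlap. The fall was larger than the mean of the other lines by 2.02 on the log2 scale (U87MG minus the others −2.02, adjusted p = 0.0137). NDRG2 entered the test only through “Vec” replicates 1 and 3 of DBTRG-05MG (8.64 and 6.59 CPM), the group where it is highest. Values that use this group, among them the difference of −2.02, are therefore given as a description.
In U251MG NDRG2 had 3.57, 4.22 and 2.75 CPM in “Vec” and 1.30, 1.79 and 2.43 in “WWOX”, again without overlap, but with a log2FC of −0.79 that did not pass (adjusted p = 0.450). In DBTRG-05MG it had 8.64, 2.45 and 6.59 CPM in “Vec” and 2.06, 3.37 and 3.77 in “WWOX” (log2FC −0.77, adjusted p = 0.694). The low “Vec” library there, replicate 2, is the one in which RNASE1 was low as well. In T98G NDRG2 had 4.29, 1.50 and 2.49 CPM in “Vec” and 3.81, 1.48 and 3.10 in “WWOX”, and the variants overlapped.

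**Figure D3:**
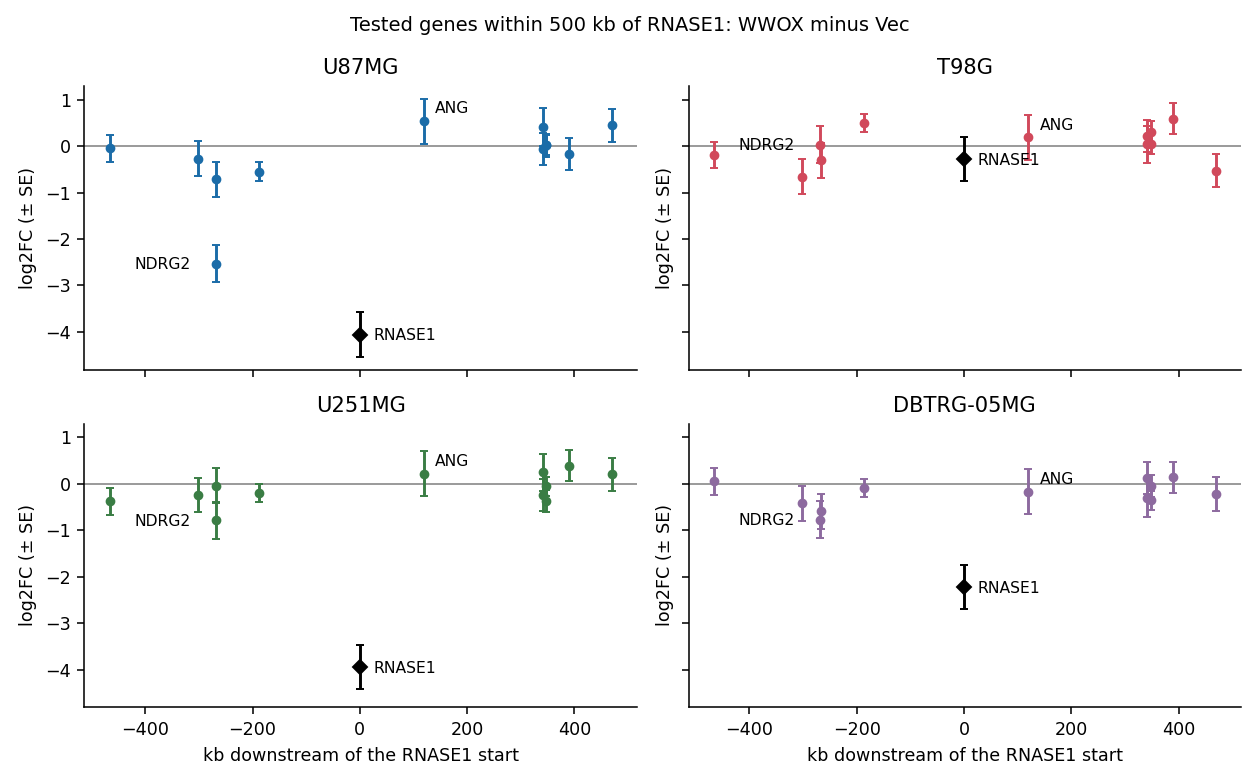
log2FC of “WWOX” minus “Vec” (vertical axes, ± standard error) of RNASE1 (black) and of the 12 tested genes within 500 kb of it, by the distance of their start from that of RNASE1 in kb (horizontal axes, positive values downstream), 1 panel per line. In U87MG NDRG2 at −2.53 and RNASE1 at −4.06 are the lowest points, and the remaining neighbours lie between −0.72 and 0.53.

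The genes most like RNASE1 were ranked by Pearson's r over the 24 libraries among all other tested genes. These correlations are descriptions only, as the libraries of a group share line, medium and variant. The choice of RNASE1 for its lower level in “WWOX” also favours genes that are lower there, so their rank is no separate support. After the “Vec” mean of each line was subtracted, the gene ranked first was NDRG2 (r = 0.835), its neighbour on chromosome 14. The next were BAG6 (0.830), CCDC28B (0.800), TEAD2 (0.800) and DOCK2 (0.795), which lie on chromosomes 6, 1, 19 and 5. The value for NDRG2 was 0.778 over the 18 libraries without U87MG, and between 0.820 and 0.936 without each other line. The 12 neighbours together had a median r of 0.20, against −0.01 over 12326 genes, and 1 of the 12, NDRG2, was above 0.5, a share close to the 5.57% of all genes.
Without that subtraction, the genes most like RNASE1 were TBCD (0.776), PSD4 (0.757), CXCL14 (0.742), ACTB (0.715) and PMPCA (0.712). CXCL14, a secreted chemokine, had means of 30.9 CPM in “Vec” and 3.23 in “WWOX” of U251MG, 15.5 and 1.57 in DBTRG-05MG, and 1.81 and 0.321 in U87MG. Unlike RNASE1, it was thus far lower in “Vec” of U87MG than in “Vec” of the other two lines.

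**Figure D4:**
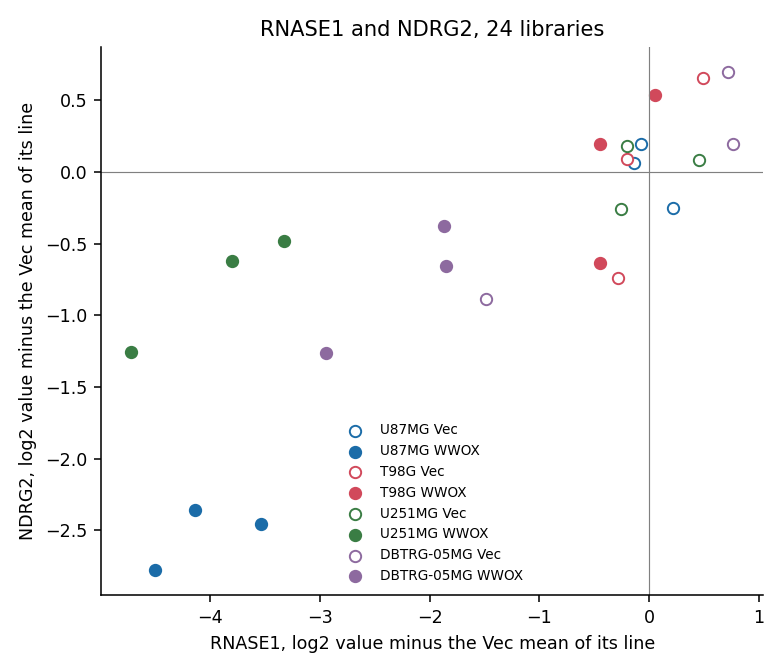
RNASE1 (horizontal axis) and NDRG2 (vertical axis) in the 24 libraries, each as its log2 value minus the “Vec” mean of its line, with “Vec” as open and “WWOX” as filled points. “WWOX” libraries of U87MG are lowest in NDRG2, those of U251MG are as low in RNASE1 with a smaller difference in NDRG2, and those of T98G lie among the “Vec” points (r = 0.835).

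The genes most like RNH1 were TOLLIP (r = 0.974), PSG4 (0.963) and BET1L (0.960). TOLLIP, an adaptor of Toll-like receptor signaling, and BET1L, a SNARE protein of the Golgi, both lie on chromosome 11 with starts 802 kb and 300 kb from that of RNH1, while PSG4 lies on chromosome 19. Mean “Vec” levels of TOLLIP were 137 CPM in T98G, 108 in U87MG, 74.1 in U251MG and 64.9 in DBTRG-05MG, the same order as for RNH1. Of 56 genes of the table within 500 kb of RNH1, 36 were tested, and 27 of these had an r above 0.5 with RNH1, against 17.6% of all tested genes. Their median r was 0.70, against −0.03 over all.
In the “Vec” variants, 26 of the 36 neighbours were higher in T98G than in U251MG past the test and 0 lower, with a median difference of 1.13 against −0.01 over all genes, of which 2083 were higher and 1905 lower. Against DBTRG-05MG, 28 were higher in T98G and 3 lower, with a median of 1.36 against −0.02 (2429 and 2646 of all genes). U87MG had 3 neighbours higher and 18 lower than T98G (2223 and 2680 of all genes), 13 higher and 4 lower than U251MG (2200 and 2559), and 15 higher and 6 lower than DBTRG-05MG (2453 and 2987). U251MG had 7 higher and 8 lower than DBTRG-05MG (1798 and 2093). DNA copy number was not measured here, and its part in these differences was not tested. Between “Vec” and “WWOX” only 1 of the 36 neighbours passed, in U87MG, where 3.2% of all tested genes did. This was SIGIRR, an inhibitory receptor of the interleukin receptor family. It fell in U87MG from 58.8, 55.2 and 52.6 CPM to 3.85, 5.70 and 11.6 CPM (log2FC −3.09 ± 0.358, SE, adjusted p = 3.76e-06, limma). Genes most like ANG were ELF1 (0.868), CDR2 (0.859) and EIF2AK3 (0.838), on chromosomes 13, 16 and 2.

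The rest of the RNase A superfamily was at or near 0 tags. None of 10 further members in the table reached 5 CPM in any library, and none was tested. RNASE7, a skin antimicrobial ribonuclease, had at most 2 tags in a library, and RNASE2, an eosinophil ribonuclease, at most 1. As counted here, RNASE1 was thus the member with the highest mean in “Vec” of U87MG, U251MG and DBTRG-05MG, and ANG in T98G. RNASE4 has no place in this order, since the assignment of its tags is not known. In “Vec” replicate 2 of DBTRG-05MG RNASE1 and ANG were close, at 1.03 and 0.966 CPM.

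Of 12 other secreted or lysosomal nucleases 7 were tested, and 0 passed in any line (limma). Over the 4 lines, 4 of their 28 comparisons had an unadjusted p under 0.05 (limma), 3 of them in U251MG and 1 in DBTRG-05MG, and 0 were called by edgeR, limma-voom or DESeq2. Over all tested genes the share with such a p was 11.5% in U87MG, T98G and U251MG and 7.63% in DBTRG-05MG, against which the counts of this kind for the lists that follow are to be read. PLD3, a lysosomal exonuclease, had the highest level, with means of 126 to 322 CPM over the 8 groups. DNASE2, the acid deoxyribonuclease of the lysosome, had 49.9 to 189 CPM, and RNASET2, the lysosomal and secreted ribonuclease of the T2 family, 8.62 to 63.7.
RNASET2 had a log2FC of −0.12, −0.88, 0.36 and −1.13 in U87MG, T98G, U251MG and DBTRG-05MG (adjusted p 1.0, 0.454, 0.829 and 0.440). In U251MG all 7 nucleases had a positive log2FC, with a median of 0.42 against 0.0 over all genes, though none passed. The list summed there to 367 to 483 CPM in “Vec” and 586 to 745 in “WWOX”, without overlap, whereas its sums overlapped in the other lines. In T98G 5 of the 7 were negative, with a median of −0.39 against −0.04. PLD3 in U251MG had a log2FC of 1.17 (adjusted p = 0.183).

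**Figure D5:**
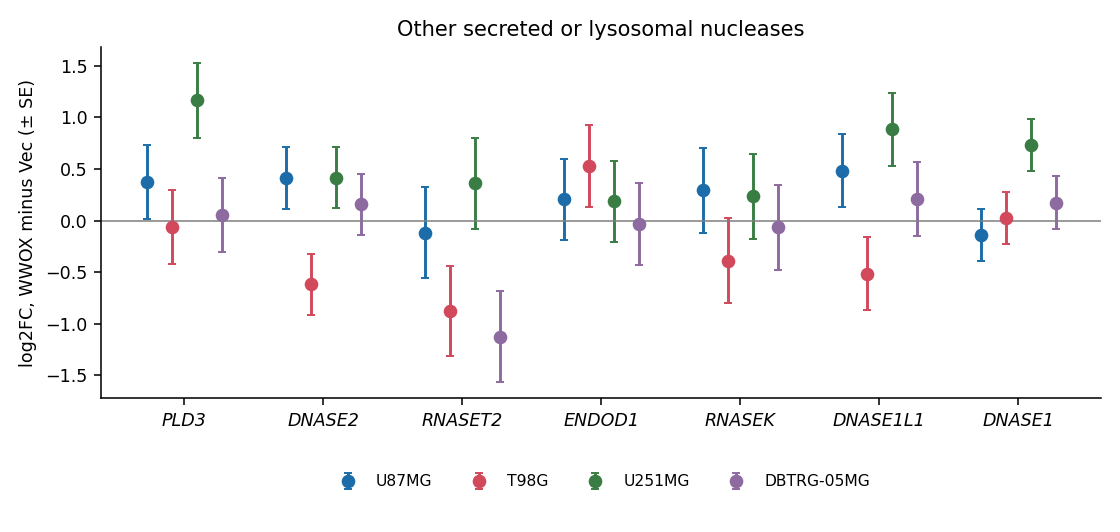
log2FC of “WWOX” minus “Vec” (vertical axis, ± standard error) of the 7 tested nucleases of the secreted or lysosomal list, 4 lines each. No point passed the test, and the points of U251MG all lie above 0.

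Of 20 intracellular ribonucleases 17 were tested and 0 passed in any line (limma), while 9 of 68 comparisons had an unadjusted p under 0.05. edgeR and limma-voom called 0 and DESeq2 called 1, a gene not reported here. The most abundant of the list were RNASEH2C, a subunit of ribonuclease H2, TSEN34, a subunit of the tRNA splicing endonuclease, and ELAC2, which processes the 3′ ends of tRNA. Their group means were 140 to 351, 62.0 to 158 and 50.1 to 172 CPM. RNASEH1, the other ribonuclease H of the cell, was at 0.336 to 0.914 CPM and EXOSC10, a catalytic subunit of the nuclear exosome, at 0.427 to 0.897. A low count of a gene in this table is thus also found for genes that most cells use.

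The 4 cell surface partners of these ribonucleases were all tested and 0 passed (limma), with 3 of 16 comparisons at an unadjusted p under 0.05 and 0 calls by edgeR, limma-voom or DESeq2. PLXNB2, the angiogenin receptor plexin B2, had means of 49.0 to 160 CPM. EGFR and EPHA4, receptor kinases reported to bind ribonucleases of this family, had 78.5 to 195 and 1.73 to 8.75 CPM, and ALK had up to 12.7 CPM in U251MG. Of 6 RNA sensors 4 were tested and 0 passed (limma), with 1 of 16 comparisons at an unadjusted p under 0.05 and 0 calls by the other tools. EIF2AK2, the kinase activated by double-stranded RNA, had 6.46 to 18.7 CPM, RIGI 2.01 to 13.9 and IFIH1 1.43 to 8.53.

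Markers of other cell types that could carry RNASE1 were summed per library. The 8 endothelial markers summed to 2.91 to 5.19 CPM in “Vec” and 2.45 to 3.12 in “WWOX” of U87MG, and to 7.02 to 10.4 and 6.24 to 8.02 in DBTRG-05MG. PECAM1, VWF, CLDN5, ERG and TEK each had at most 0.695 CPM in any library. KDR, ESAM and CDH5 reached 6.22, 7.86 and 13.2 CPM, so the sums do not describe the 8 markers together. In U251MG, where RNASE1 was low in “WWOX”, the sums were 4.55 to 10.1 CPM in “Vec” and 9.01 to 15.7 in “WWOX”. In T98G, where RNASE1 was near the floor in both variants, the sums were lowest, at 0.934 to 1.25 CPM in “Vec” and 0.558 to 0.660 in “WWOX”, without overlap. Of the 3 endothelial markers tested, CDH5 rose in U251MG (log2FC 1.28, adjusted p = 0.0132, limma), where 0.316% of all tested genes passed. No other marker of this list passed. The call of CDH5 was lost without “WWOX” replicate 1 (adjusted p = 0.0683) and with limma-voom, edgeR or DESeq2 (0.113, 0.243 and 0.178). The 7 myeloid markers summed to at most 0.486 CPM outside U87MG, where they had 6.53 to 15.9 CPM in “Vec” and 6.36 to 8.81 in “WWOX”, and the 1 tested did not pass. This 1 was CSF1R, which reached 14.7 CPM and made up nearly all of the sum in U87MG. CD68, the next highest, had at most 0.850 CPM in any library, and AIF1 had 0.
The 7 fibroblast and pericyte markers summed to 270 to 661 CPM in “Vec” and 118 to 243 in “WWOX” of U87MG. This sum was thus lower in the same libraries as RNASE1, but the markers did not move together. Of the 6 tested in U87MG, 3 had a positive and 3 a negative log2FC. COL1A1 and COL1A2 fell (log2FC −1.91 and −1.46) and LUM and DCN rose (2.87 and 1.50), in a line where 3.2% of all tested genes passed. LUM, DCN and, in U251MG, CDH5 reached 5 CPM only in libraries of the group where they were high, and LUM in 1 library only, so their calls are given as a description. With edgeR the calls of COL1A1 and DCN were lost (adjusted p 0.0615 and 0.151), and DCN had a log2FC of 0.86 without “WWOX” replicate 1. In U251MG the sums were 522 to 769 CPM in “Vec” and 294 to 870 in “WWOX”, which overlapped. In DBTRG-05MG they were 11.6 to 11.9 and 6.10 to 7.96, without overlap and lower in “WWOX”, as in U87MG. Of the 6 tested in DBTRG-05MG, 4 had a positive and 2 a negative log2FC. Each of these lines, U251MG and DBTRG-05MG, had 0 calls (limma) and 1 comparison at an unadjusted p under 0.05. DESeq2 made 1 call in DBTRG-05MG. T98G had 410 to 557 CPM in “Vec” and 312 to 488 in “WWOX”, which overlapped, with 0 calls (limma). The 8 glial markers summed to 737 to 1060 CPM in “Vec” and 738 to 1031 in “WWOX” of U87MG, to 1646 to 2106 and 1256 to 1341 in T98G, to 3816 to 5261 and 1585 to 5686 in U251MG, and to 2142 to 3704 and 2244 to 3226 in DBTRG-05MG. The sums thus did not overlap in T98G. CD44, 1 of the 8, alone had 678 to 3520 CPM over the 24 libraries, where the median of GFAP was 4.81 CPM. Outside U251MG these sums therefore rest largely on CD44 and do not describe the 8 markers together. In U251MG 5 of the 6 tested had a negative log2FC (median −0.64), and 0 passed in any line (limma; 0 also at an unadjusted p under 0.05 and by edgeR, limma-voom or DESeq2). The part of these markers in the level of RNASE1 was not tested.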

How the data were processed

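CAGE-Seq libraries of 4 lines as “Vec” and “WWOX” (3 each, 24 in all; 75 nt single-end reads) were aligned by the authors to hg38 with STAR, and tags per gene were deposited as CPM summing to 1000000. The annotation and the rule for tags in overlapping genes are not given in the sources used here. Whole tags were recovered from the CPM (100% of values within 0.01 tags), and 43033 of 43037 IDs had a symbol. Columns not used numbered 0.

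CPM were scaled by trimmed mean of M-values (edgeR 4.0.16), 0.5 was added, and log2 values of the 12327 genes that reached 5 CPM in 1 library or more were fitted with limma 3.58.1 (trend, 8 groups, 16 residual degrees of freedom). Fits were tested on simulated data. P-values are two-sided, Benjamini-Hochberg adjusted over all tested genes, with a threshold of 0.05. Exact permutation tests exchanged labels within lines (160000 arrangements), and 3 against 3 libraries cannot give p under 0.1. Alternatives were other pseudocounts, filters and scalings, a replicate block, a model per line, limma-voom, edgeR, DESeq2 1.42.0 and leaving out each library. The members and gene lists were chosen with earlier results of these data known. Genes were named where they are members, past the threshold in a line, among the 3 highest of a list, or among the 3 or 5 most like a member. The numbers of tags within groups differed by 25.2 to 353 times sampling noise (chi-square per degree of freedom, 24 pairs), so no library was a duplicate. The gene behind 1 DESeq2 call among the intracellular ribonucleases is not reported here.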

Additional observations from a re-analysis of the deposited data

Results flagged for a closer look

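SIGIRR, beside RNH1, had a “WWOX” effect in U87MG that differed from the mean of the other lines by −2.52 on the log2 scale. It passed a test of that difference (limma, adjusted p under 0.05). The same held in U87MG for the stromal markers COL1A1 (−2.25) and COL1A2 (−1.61). The differences of NDRG2, beside RNASE1 (−2.02), and LUM (2.88) in U87MG are given as a description only. So is that of the endothelial marker CDH5 (1.25) in U251MG. LUM and CDH5 were tested only because of libraries of the group in which they were high, LUM through 1 library. NDRG2 was tested only because of “Vec” libraries of DBTRG-05MG, a line in the mean it is compared with.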

How the results depend on the processing

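RNASE1 was chosen for its difference between “Vec” and “WWOX”, so its sign under the alternatives is a description and gives no support. That sign was negative throughout, and in T98G it rests on 8 tags in “Vec” and 2 in “WWOX”. The log2FC of RNASE1 moved with the handling of near-zero tags. In U87MG it was −5.49 with a pseudocount of 0.1, −3.31 with 1, −5.99 with limma-voom, −5.50 with edgeR and −5.62 with DESeq2. In U251MG the values in that order were −5.12, −3.31, −5.85, −5.02 and −4.98. In T98G, where both groups are near the floor, a pseudocount of 0.1 gave −0.83, limma-voom −1.37, edgeR −1.70 and DESeq2 −1.78. In DBTRG-05MG limma-voom gave −3.49, edgeR −3.37 and DESeq2 −3.37. Leaving out single libraries gave −4.35 to −3.83 in U87MG, −0.45 to −0.040 in T98G, −4.27 to −3.56 in U251MG and −2.96 to −1.84 in DBTRG-05MG.

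ANG between “Vec” of T98G and DBTRG-05MG passed with a pseudocount of 0.1 (1.65), limma-voom (1.87), edgeR (2.03) and DESeq2 (2.004), and ranged from 0.68 to 1.50 without single libraries. ANG between “Vec” of U87MG and DBTRG-05MG ranged from 1.22 to 1.86, and RNH1 from −1.03 to −0.63 between U87MG and T98G and from 0.83 to 1.18 between U87MG and U251MG. Values that had not passed changed sign. The difference of ANG from the mean of the other lines was 0.051 with a pseudocount of 0.1 and 0.016 with median of ratios in T98G, and −0.0058 with a pseudocount of 1 in U251MG, and the mean of RNH1 over the lines was 0.022 with CPM as deposited.

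Without single libraries, “WWOX” minus “Vec” of ANG ran from −0.11 to 0.71 in T98G, −0.14 to 0.45 in U251MG and −0.40 to 0.085 in DBTRG-05MG, and that of RNH1 from −0.023 to 0.31 in U87MG, −0.12 to 0.31 in T98G, −0.66 to 0.052 in U251MG and −0.22 to 0.0053 in DBTRG-05MG. “Vec” pairs of ANG ran from −0.036 to 0.78 for U87MG and T98G and from −0.10 to 0.72 for T98G and U251MG. Differences from the mean of the other lines ran from −0.30 to 0.52 (T98G) and −0.33 to 0.26 (U251MG) for ANG, and from −0.080 to 0.37 (T98G), −0.70 to 0.0058 (U251MG) and −0.23 to 0.035 (DBTRG-05MG) for RNH1, whose mean over the lines ran from −0.12 to 0.048. NDRG2 in T98G ran from −0.34 to 0.36, and in U87MG it passed under all 33 alternatives that tested it (its mean is under 5 CPM).

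The calls of the stromal markers COL1A1 and DCN in U87MG and of CDH5 in U251MG were lost under 15, 26 and 8 alternatives, among them edgeR, and those of COL1A2 (adjusted p = 0.0546) and LUM (0.0748) with a model per line (limma). The number of genes called in U87MG ranged from 186 (a model per line) to 618 (no filter), in T98G from 11 to 271, in U251MG from 2 to 114 and in DBTRG-05MG from 74 to 395 under those alternatives, and DESeq2 called 273 in T98G and 162 in U251MG against 14 by edgeR, which called 49 in DBTRG-05MG. Without single libraries the number ran from 253 to 491, 45 to 394, 13 to 557 and 74 to 149 in these lines. Library numbers did not pair the variants. As deviations from their group means, same-numbered “Vec” and “WWOX” libraries of a line correlated at −0.55 to 0.51 and differently numbered ones at −0.63 to 0.70. The replicate block (NDRG2 in U87MG −2.53, adjusted p = 0.000248, limma) changed no call of a member. RNASE4 gave no value under any test, and depth limits RNASE1 in “WWOX”, where groups hold 2 to 23 tags. The causes of these changes were not tested.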
